A study of Mus musculus with 12 samples.

Results

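The response of heat shock factor 1 (HSF1) knock-out mouse embryonic fibroblasts (HSF1 KO MEF) to lithium chloride (LiCl) was followed across all measured genes. It rested on 6 of the 12 RNA-seq libraries of the study, namely 3 libraries of HSF1 KO MEF without LiCl and 3 of HSF1 KO MEF kept in 20 mM LiCl for 48 h, chosen by their labels. Wild type (WT) MEF without LiCl and with the same LiCl exposure, 3 libraries each, served as the comparison genotype. MEF are fibroblasts grown from mouse embryos. The sources used here do not say which part of Hsf1 was deleted, from how many embryos or lines the cells came, or whether the cultures without LiCl received another salt. The methods state that the sequencing was repeated, without saying whether on separate cultures or on the same RNA, so the p-values rest on a spread that may be technical. Within a group, 1 library was numbered 1 in the labels, 1 was numbered 2 and 1 had no number, and values are given in that order.

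HSF1 is the main transcription factor of the heat shock response. It binds heat shock elements, inverted repeats of a short unit found before genes of molecular chaperones, and raises their transcription when proteins unfold. Lithium inhibits glycogen synthase kinase 3 (GSK3), the kinase that marks β-catenin for destruction, so that β-catenin gathers and acts on WNT target genes such as Axin2. Lithium also inhibits enzymes of inositol phosphate metabolism and, at high concentration, changes the ion balance of cells.

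The summed values of the 6 HSF1 KO MEF libraries were alike, at 344208 to 370025 FPKM (fragments per unit of transcript length and of library size) without LiCl and 347568 to 360888 FPKM with it. Correlations of log2(FPKM + 1) across genes were 0.976 to 0.983 within either group and 0.885 to 0.892 between the groups. The labelled cell type was checked against its markers. All 12 fibroblast markers were measured, and they summed to 3267 to 3443 FPKM in HSF1 KO MEF without LiCl, or 0.884% to 0.987% of a library. The 25 macrophage markers were measured too, and summed to 1619 to 1838 FPKM in the same 3 libraries, or 0.471% to 0.514%, against 132 to 140 FPKM in untreated WT MEF. The pan-leukocyte gene Ptprc stood at 3.57, 3.69 and 3.94 FPKM in untreated HSF1 KO MEF and was listed at 0 in all 6 WT libraries. Transcripts that mark macrophages were thus present in the cultures labelled HSF1 KO MEF before LiCl. In bulk RNA, fewer cells of a type and less RNA per cell cannot be told apart.

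Hsf1 itself (chr15:76477422-76501913, plus strand, GRCm38) was the first gene examined. It stood at 0.939, 3.89 and 2.07 FPKM in HSF1 KO MEF without LiCl and at 3.65, 7.64 and 5.92 FPKM with it, and in WT MEF at 11.1, 7.96 and 8.17 and 14.5, 13.3 and 11.2 FPKM. The 2 HSF1 KO MEF groups overlapped, since the untreated replicate 2 lay above the treated replicate 1, yet the log2 fold change of 1.08 ± 0.31 (standard error) passed the test (limma, adjusted p = 0.0122). Most of the signal belonged to 1 short transcript of 3 exons at the 3′ end of the gene (ENSMUST00000228688.1, chr15:76499966-76500690), at 0.738, 3.45 and 1.72 FPKM without LiCl and 3.34, 7.12 and 5.43 FPKM with it. Of 4 transcripts that span the gene, that of 12 exons (ENSMUST00000072838.5) was listed at 0 in all 6 HSF1 KO MEF libraries and at 1.01 to 2.25 FPKM in the WT libraries. The others have 13 exons, and 1 of them (ENSMUST00000226872.1) was above 0 in every HSF1 KO MEF library, at 0.201, 0.258 and 0.354 FPKM without LiCl and 0.12, 0.451 and 0.498 FPKM with it, against 0.668 to 2.25 FPKM in the WT libraries. The other two reached at most 0.192 FPKM in HSF1 KO MEF.

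LiCl changed most of the tested genes in HSF1 KO MEF. Of 12279 genes tested, 4480 were higher (36.5%) after LiCl and 2592 were lower (21.1%) in HSF1 KO MEF (limma on log2(FPKM + 1), adjusted p under 0.05), and 5207 did not pass. For 7617 genes (62%) the untreated and treated HSF1 KO MEF libraries did not overlap, so separate libraries alone do not set a gene apart. The falls reached further than the rises. A log2 fold change over 2 was seen for 77 of the genes that rose, and one under -2 for 309 of those that fell. The median of all genes moved by 0.163, so a change is best read against that shift. When the libraries were rescaled by the median of their gene ratios the shift was -0.004, with 3237 genes higher and 3452 lower, and the share of higher genes among the called ones went from 63.3% to 48.4%. For the gene lists below, the counts of rises and falls in HSF1 KO MEF under this rescaling follow the main counts wherever they differ. The main counts are to be read beside 36.5% higher and 21.1% lower over all genes, and the rescaled ones beside 26.4% and 28.1%. Counts of responses that differ from WT MEF, and of genes changed only in HSF1 KO MEF, come from the main fit unless stated. They moved too, for example from 24 to 20 mitotic genes with the higher response and from 8 to 10 MHC class I genes with the lower.

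WT MEF were tested in the same fit with libraries that HSF1 KO MEF did not share, and 4680 genes rose there (38.1%) and 3330 fell (27.1%). Across all tested genes the log2 fold changes of both genotypes had a Pearson correlation of 0.74 and 79.4% had the same sign, which describes genes and not independent replicates. The test of the difference between the responses called 3846 genes (31.3%). Among the 3465 genes that rose in both genotypes, the rise was smaller in HSF1 KO MEF for 883 and larger for 139. Among the 2021 genes that fell in both, the fall was smaller in HSF1 KO MEF for 716 and larger for 250. The plot of both responses shows these genes on either side of the line of equal change.

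**Figure D1:**
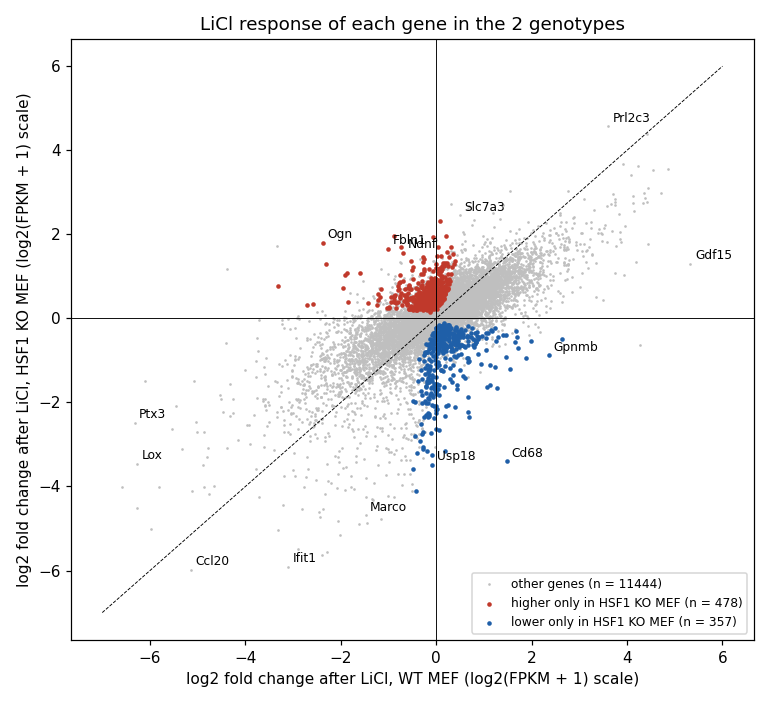
Log2 fold change after LiCl of each of the 12279 tested genes in WT MEF (horizontal axis) and in HSF1 KO MEF (vertical axis), both on the log2(FPKM + 1) scale, with the dashed line marking equal responses and genes changed only in HSF1 KO MEF in red (478 higher) and blue (357 lower). Ogn, Fbln1 and Ndnf lie above the horizontal and left of the vertical zero line, Cd68 lies below and to the right, and Ifit1 and Marco lie far below the dashed line.

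Among the deepest falls after LiCl in HSF1 KO MEF were those of interferon-stimulated genes, which cells switch on when the type I interferon receptor signals through STAT proteins. All 33 measured members fell, and none rose, with a median log2 fold change of -3.10 (range -5.91 to -0.85) beside 0.163 over all genes. In WT MEF 31 of them fell with a median of -1.13, and the test of the difference gave a larger fall in HSF1 KO MEF for 30. Without LiCl all 33 already stood above untreated WT MEF, so the falls began from a higher level. Untreated WT MEF averaged under 1 FPKM for 2 of them, and with a pseudocount of 0.1 the fall was larger for 29. The count of falls was the same after rescaling, and 3 of the 33 were listed at 0 in every treated HSF1 KO MEF library.

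Ifit1, whose product binds foreign RNA at its 5′ end, stood at 103, 104 and 112 FPKM without LiCl and at 0.665, 0.854 and 0.839 FPKM with it in HSF1 KO MEF. Hardly any transcript was left in the treated libraries, with every treated library far below the untreated ones (log2 fold change -5.91 ± 0.08, adjusted p = 1.19e-11). WT MEF fell from 15.5 ± 1.23 to 0.919 ± 0.0664 FPKM (mean ± SD, n = 3, as for all WT values here), so that the treated libraries of both genotypes ended at like levels from different starts. Isg15, a ubiquitin-like protein joined to other proteins, went from 408, 416 and 320.0 to 6.65, 8.74 and 7.22 FPKM, and its fall was larger than in WT MEF (difference -2.59, adjusted p = 1.31e-06). Irgm1, a GTPase that acts on the vacuoles of intracellular microbes, went from 137, 136 and 139 to 14.2, 15.1 and 16.2 FPKM, and kept more of its level than the genes above. Usp18, which strips Isg15 from its targets and dampens the interferon receptor, fell only in HSF1 KO MEF, from 78.7, 70.1 and 68.5 to 5.75, 6.15 and 4.81 FPKM, and stayed at 8.04 ± 0.335 and 7.58 ± 1.01 FPKM in WT MEF, with a difference of responses of -3.40 (adjusted p = 1.01e-07). Ifit3 (-5.64 ± 0.07) and Ifit3b (-5.16 ± 0.11) are near-identical copies, and how their reads were divided is uncertain.

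The interferon-stimulated response element, the site of STAT and IRF factors, was searched for as GAAA, any 2 bases and GAAA again, on both strands in RefSeq promoters of GRCm38.p6, from 250 bases before to 50 after the start site. It lay in 4.0% of the 27025 genes in the promoter table. Only 26 of the 33 interferon genes had a promoter there, so that a share over the list would be void. Windows of some of the members that hold it, chosen after their values were seen, are shown to place the element, in capitals, beside their values. Each runs 5′ to 3′ along the strand of its gene, and the reverse complement of the element reads TTTC at both ends. A match is a description of these letters and no evidence that a factor was bound.
Ifit1, chr19:34640794-34640823, plus strand: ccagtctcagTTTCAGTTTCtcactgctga
Ifit3, chr19:34583397-34583426, plus strand: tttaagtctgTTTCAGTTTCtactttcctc
Isg15, chr4:156200865-156200894, minus strand: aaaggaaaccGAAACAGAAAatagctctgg
Gbp2, chr3:142620594-142620623, plus strand: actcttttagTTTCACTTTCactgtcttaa
Rsad2, chr12:26456553-26456582, minus strand: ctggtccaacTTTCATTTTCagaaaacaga
Irgm1, chr11:48871425-48871454, minus strand: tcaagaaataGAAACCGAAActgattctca
Cxcl10, chr5:92349083-92349112, minus strand: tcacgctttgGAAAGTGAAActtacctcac

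Where a promoter held more than 1 match, the window shows the one furthest downstream, as for Irgm1 (2 matches) and Isg15 (3 matches). The match shown began 24 bases before the start site in Irgm1 and 66 bases before it in Isg15. The only match of Cxcl10 began 213 bases before. Cxcl10, a chemokine induced by interferon, fell from 56.2, 58.5 and 53.9 to 1.86, 1.25 and 0.951 FPKM. Gbp2, a guanylate-binding protein of cell-autonomous defence, fell from 46.6, 49.6 and 46.2 to 1.01, 1.16 and 1.06 FPKM. For both genes every treated library lay far below every untreated one, and the fall was larger than in WT MEF (difference -2.17, adjusted p = 0.000126, for Cxcl10 and -1.73, adjusted p = 4.43e-06, for Gbp2).

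Macrophage markers moved with the interferon genes. All 25 fell in HSF1 KO MEF, with a median of -3.38. By the test of the difference, each responded lower there than in WT MEF. The WT MEF median was -0.64, and 17 markers were lower after LiCl in that genotype, 2 were higher and 6 were not called. Without LiCl all 25 stood above untreated WT MEF, where 13 averaged under 1 FPKM and had little room to fall, and with a pseudocount of 0.1 the difference passed for 17. Their sum went from 1619 to 1838 FPKM without LiCl to 119 to 135 FPKM with it, or 0.033% to 0.037% of a library, and in WT MEF from 132 to 140 FPKM down to 41.8 to 46.7 FPKM. Adgre1, the F4/80 antigen, went from 46.6, 45.8 and 47.5 to 1.95, 2.16 and 1.48 FPKM. Csf1r, the receptor of the macrophage growth factor, went from 13.2, 13 and 13.4 to 0, 0.877 and 0.356 FPKM and was listed at 0 in treated replicate 1. Ptprc, Aif1 and Fcgr2b were listed at 0 in all 3 treated libraries, having been at 2.35 to 4.03 FPKM in the untreated ones. Lyz2, a lysozyme of myeloid cells and the most abundant marker, kept 82.9, 92.8 and 81.9 FPKM of 1248, 1220 and 1052 FPKM. The part of this fall in the fall of the interferon, chemokine and other immune genes was not tested.

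Other genes known from macrophages, outside the marker list, were among the 20 deepest falls, which were chosen among genes whose groups did not overlap. Marco, a scavenger receptor, went from 104, 95.8 and 92.8 to 2.95, 3.46 and 2.20 FPKM. Acod1, which makes itaconate in activated macrophages, went from 29.9, 30.7 and 30.97 to 0.636, 0.519 and 0.596 FPKM, and Mmp12, the macrophage elastase, from 46.2, 58.1 and 30.5 to 0.398, 0.527 and 0.537 FPKM. Each fall was larger than in WT MEF on the log2(FPKM + 1) scale, with differences of -3.28 to -2.99. In WT MEF Marco went from 2.50 ± 0.496 to 0.25 ± 0.129 FPKM and Acod1 from 1.70 ± 0.430 to 0.0723 ± 0.0629 FPKM. Mmp12 went there from 4.77 ± 0.163 to 0.880 ± 0.219 FPKM. At such levels the pseudocount of 1 shrinks the WT falls, so these differences are in part too large. The plot of macrophage, interferon and chemokine genes shows all 12 libraries.

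**Figure D2:**
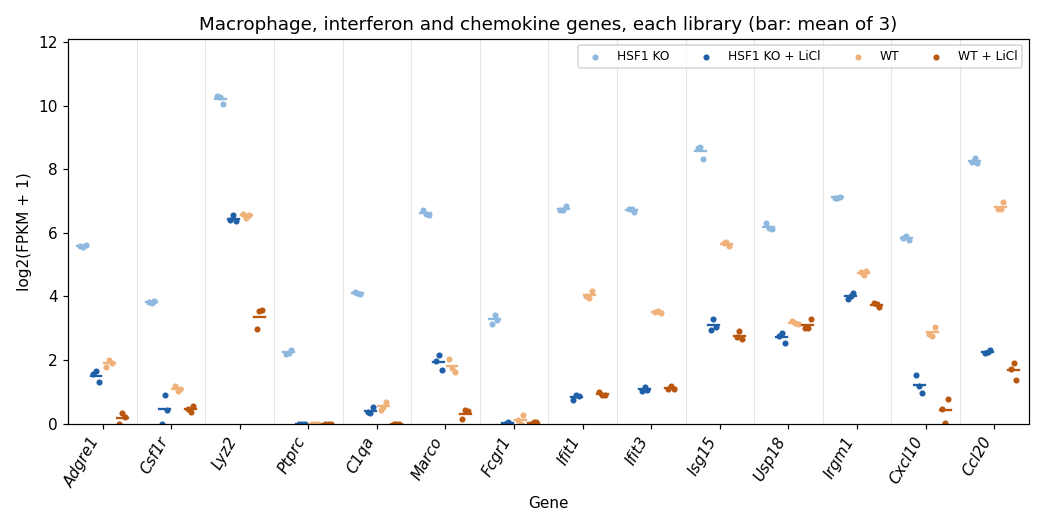
Level of macrophage, interferon and chemokine genes as log2(FPKM + 1) in each library, with points for single libraries and bars for the mean of 3, in HSF1 KO MEF and WT MEF without and with LiCl. In HSF1 KO MEF every gene drops from the light to the dark blue points, Ptprc to 0, while Ptprc is at 0 in WT MEF with and without LiCl and Usp18 keeps its level there.

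Chemokines and cytokines fell as well, in 21 of 27 measured genes against 2 that rose, with a median of -1.73 (23 and 1 after rescaling). All 9 CXC chemokines fell. The largest fall of any named gene was that of Ccl20, a chemokine for lymphocytes and dendritic cells, from 296, 326 and 290.0 to 3.71, 3.75 and 3.93 FPKM (-5.99 ± 0.12, adjusted p = 1.2e-10). Against WT MEF, some members fell more and others less. Il6, an inflammatory cytokine that fibroblasts also make, went from 72.05, 68.8 and 80.4 to 2.66, 2.50 and 1.71 FPKM, but fell less than in WT MEF, where it went from 132 ± 12.7 to 0.751 ± 0.344 FPKM (difference 1.75, adjusted p = 0.000157). Cxcl5, a neutrophil chemokine, changed by -4.00 in HSF1 KO MEF and -6.59 in WT MEF on the log2 scale, whereas Ccl9 changed by -4.87 and -1.46. Ccl9 started at only 2.30 ± 0.468 FPKM in WT MEF, where the pseudocount of 1 shrinks a fall. In the list as a whole, 10 members responded higher and 7 lower than in WT MEF. Complement and acute phase genes fell in 12 of 14 measured members with 1 riser (0 after rescaling and without any of 9 single libraries), and in 10 of the 14 the response was higher than in WT MEF. Ptx3, a soluble pattern recognition protein, went from 128, 126 and 137 to 22.5, 21.99 and 22.7 FPKM and from 342 ± 2.56 to 3.31 ± 0.559 FPKM in WT MEF, a difference of 3.84 (adjusted p = 1.49e-08).

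Genes of MHC class I and antigen processing, which show peptides of the cell to T cells, included more genes that fell than rose in HSF1 KO MEF and were mixed in WT MEF. In HSF1 KO MEF 7 of 14 measured genes fell and 1 rose (10 and 1 after rescaling), with a median of -0.60, and in WT MEF 4 fell and 5 rose. For 8 genes the response was lower in HSF1 KO MEF and for none was it higher. H2-K1, a classical class I heavy chain, went from 70.3, 71.1 and 60.4 to 36.6, 41.1 and 33.2 FPKM and stayed at 155 ± 4.11 and 156 ± 8.34 FPKM in WT MEF (difference -0.85, adjusted p = 0.000345). Tapbp, which loads peptides onto class I, fell from 51.3, 49.4 and 49.3 to 28.4, 30.3 and 27.9 FPKM but rose slightly in WT MEF. Psmb8, a subunit of the immunoproteasome, went from 11.8, 16.9 and 12.3 to 3.92, 3.02 and 2.40 FPKM. In all 3 genes the untreated and treated libraries of HSF1 KO MEF were separate, as they were for 62% of all tested genes.

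Heat shock genes are the best known targets of HSF1, and many of them rose after LiCl in HSF1 KO MEF. Of 46 genes tested there, 23 rose and 8 fell, with a median log2 fold change of 0.23, beside 36.5% higher and 21.1% lower over all genes. After rescaling 17 rose and 12 fell. In WT MEF 25 rose and 10 fell with a median of 0.30. The response differed from that of WT MEF for 14 of the 46, higher in HSF1 KO MEF for 6 and lower for 8. That is about the share over all genes, of which 31.3% differed.

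Cytosolic HSP70 and HSP110 chaperones, which hold and refold proteins with ATP, rose in 5 of 10 genes and fell in 1 (5 and 4 after rescaling). Hspa4l went from 3.49, 3.48 and 5.46 to 15.8, 14.7 and 19.6 FPKM, the largest rise of the list (1.80 ± 0.15, adjusted p = 1.78e-06). Hsph1, an HSP110 that exchanges the nucleotide of HSP70, went from 17.7, 15.2 and 17.9 to 34.02, 37.9 and 39.95 FPKM, and its rise exceeded that of WT MEF, where it went from 41.1 ± 1.55 to 65.8 ± 4.74 FPKM (difference 0.43, adjusted p = 0.0182). The inducible HSP70 genes rose too, though less than in WT MEF. Hspa1a went from 6.42, 5.26 and 6.39 to 13.4, 15.99 and 13.5 FPKM and from 5.93 ± 0.687 to 22.1 ± 0.952 FPKM in WT MEF (difference -0.62, adjusted p = 0.00868). Hspa1b went from 14.98, 13.1 and 16.2 to 27.3, 29.1 and 29.7 FPKM with a difference of -0.57 (adjusted p = 0.002), and since Hspa1a and Hspa1b are near-identical copies, the split of reads between them is uncertain. Hspa8, the constitutive HSP70, stood at 429, 423 and 376 FPKM without LiCl and 395, 416 and 373 FPKM with it, and did not pass (adjusted p = 0.626). After rescaling its log2 fold change was -0.26, and it then counted as lower.

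HSP90 and its cochaperones rose in 7 of 11 genes and fell in 1, but in 2 and 1 after rescaling, since several of the rises were close to the median shift of all genes. Fkbp4, an immunophilin that rides on HSP90 with steroid receptors, went from 31.3, 28.4 and 27.2 to 60.3, 66.7 and 59.4 FPKM, a larger rise than in WT MEF (difference 0.59, adjusted p = 0.00127). Stip1, which hands clients from HSP70 to HSP90, went from 126, 125 and 127 to 145, 154 and 140.3 FPKM and was the only gene of the heat shock list among those higher only in HSF1 KO MEF, but its log2 fold change of 0.21 became 0.01 after rescaling. Fkbp5, a cochaperone induced by glucocorticoids, fell from 7.71, 6.60 and 7.48 to 3.58, 3.94 and 3.89 FPKM. Hsp90aa1, the inducible HSP90, lay at 207, 215 and 194 FPKM without LiCl and 225, 286 and 321 FPKM with it, without overlap, and did not pass (adjusted p = 0.0763).

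Mitochondrial chaperones rose in 5 of 6 genes and fell in none (5 and 1 after rescaling). Hspe1, the lid of the mitochondrial chaperonin, went from 128, 139.8 and 113 to 289, 259 and 252 FPKM, and Hspd1, its barrel, from 132, 131 and 139 to 166, 171 and 178 FPKM. The rise of Hspe1 was smaller than in WT MEF (difference -0.64, adjusted p = 0.00215), and that of Hspd1 did not pass as different (adjusted p = 0.154). HSP40 proteins and nucleotide exchange factors, which feed clients to HSP70 and release them, rose in 6 of 13 genes and fell in 3 (5 and 3 after rescaling). Dnajb1 rose from 21.2, 21.2 and 20.1 to 26.2, 27.5 and 27.8 FPKM, much as in WT MEF (difference 0.04, adjusted p = 0.736), while Bag3, a factor of selective autophagy, fell from 52.98, 54.2 and 56.5 to 36.5, 38.1 and 40.6 FPKM.

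Small heat shock proteins, which bind unfolding proteins without ATP, went the other way, with 3 of 6 lower and none higher. Hspb1 fell from 193, 178 and 160.2 to 64.3, 81.7 and 60.1 FPKM, and Hspb7, which is known from heart and skeletal muscle, from 4.64, 3.94 and 3.01 to 0.210, 0.101 and 0.133 FPKM. Hspb6 went from 41.9, 12.7 and 40.9 to 10.1, 6.81 and 9.25 FPKM, a fall of wider spread because untreated replicate 2 lay near the treated level. All 3 also fell in WT MEF. Cryab, a lens crystallin made in many stressed cells, stood at 164, 124 and 102 and 177, 171 and 196 FPKM and did not pass (adjusted p = 0.0609). Leaving out 1 library ended 5 calls of the list, with the highest adjusted p at 0.0542 for Ahsa1 without treated replicate 2, 0.147 for Ahsa2 without untreated replicate 1, 0.156 for Ptges3 without the unnumbered treated library, and 0.0812 for Dnajb4 and 0.0761 for Dnajb6, both without untreated replicate 2.

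**Figure D3:**
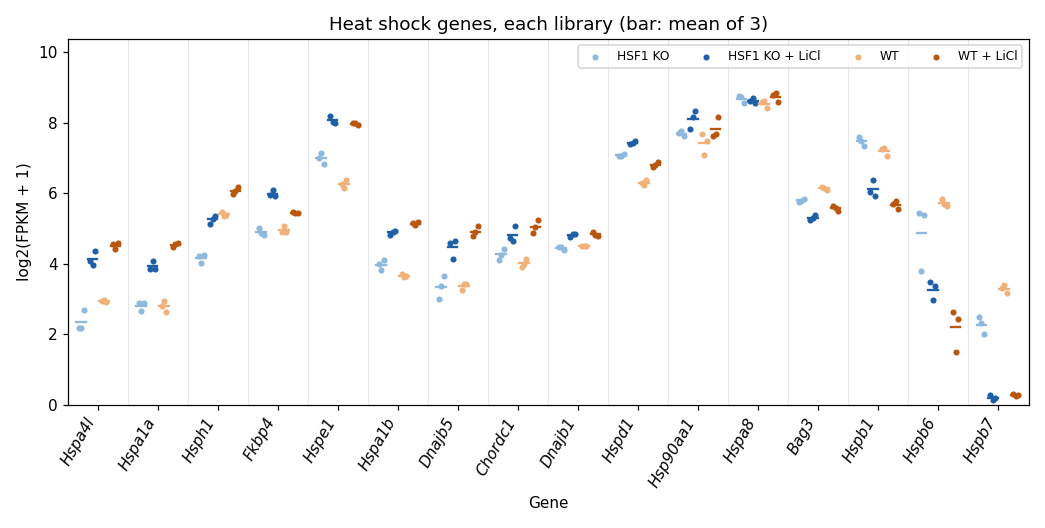
Level of 16 heat shock genes as log2(FPKM + 1) in each library, with points for single libraries and bars for the mean of 3, in HSF1 KO MEF and WT MEF without and with LiCl. Hspa4l, Hspa1a, Hsph1, Fkbp4 and Hspe1 rise in HSF1 KO MEF, Hspa8 keeps its level at the scaling as deposited, and Bag3, Hspb1, Hspb6 and Hspb7 fall.

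Heat shock elements were searched for in the same RefSeq promoters, as the inverted pair GAANNTTC and as a stricter run of 3 units, GAA and TTC in turn with any pair of bases between them, which contains that pair. A promoter was found for 38 of the 46 heat shock genes. The pair lay in 36.8% of the 38 and in 9.0% of all genes in the promoter table, and the run of 3 units in 13.2% and 0.7%. Among the genes that rose, 8 of 21 with a promoter held the pair, as did 4 of 8 that fell. The 5 promoters with the run of 3 units are shown with its match furthest downstream in capitals. They set genes that rose without HSF1 beside 1 that fell.
Hsph1, chr5:149636287-149636309, minus strand: tgctgcagaTTCTGGAAAGTTCt
Hspe1, chr1:55088055-55088084, plus strand: tccgttctaGAACCTTCCGGAAggccccgc
Hspd1, chr1:55088051-55088080, minus strand: ggccttccgGAAGGTTCTAGAAcggaccgt
Chordc1, chr9:18292264-18292293, plus strand: aacgttcggGAAAATTCCTGAAgcagtacc
Dnajb6, chr5:29735843-29735872, plus strand: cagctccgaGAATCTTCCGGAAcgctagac

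Hspe1 and Hspd1 are neighbours in opposite directions, and their windows cover the same stretch of chromosome 1 on opposite strands. Chordc1, an HSP90 cochaperone, rose from 16.3, 17.9 and 20.5 to 25.7, 24.1 and 32.6 FPKM. Dnajb6, an HSP40 that keeps proteins from aggregating, fell from 77.03, 79.5 and 72.5 to 68.7, 68.1 and 67.7 FPKM (-0.16 ± 0.05, adjusted p = 0.0201), the smallest fall among the called members of the list. Genes with this element were thus found among those that rose and those that fell.

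Cell division genes rose in HSF1 KO MEF, and more of them did so than in WT MEF. Of 40 genes of mitosis and the G2/M phase, 33 rose and none fell, with a median log2 fold change of 0.68 (31 and 2 after rescaling). In WT MEF 11 rose and 7 fell with a median of 0.11. By the test of the difference the HSF1 KO MEF response was the higher for 24 genes and the lower for none, and 18 of the 40 were higher only in HSF1 KO MEF, beside 3.89% of all genes. Of 40 genes of DNA replication and S phase, 30 rose and 2 fell with a median of 0.56 (25 and 2 after rescaling), against 18 and 7 in WT MEF with a median of 0.17, and 16 responded higher and 2 lower than in WT MEF. Without LiCl, 39 of the 40 mitotic and 32 of the 40 S phase genes already stood above their WT MEF level. Untreated WT MEF averaged under 1 FPKM for 22 and 8 of them, levels at which the pseudocount of 1 shrinks a response. With a pseudocount of 0.1, the HSF1 KO MEF response was higher for 17 mitotic and 12 S phase genes.

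Cenpe, a kinesin that pulls chromosomes to the spindle equator, went from 3.06, 3.20 and 3.10 to 12.5, 11.7 and 14.5 FPKM (1.75 ± 0.10, adjusted p = 1.08e-07) and from 0.643 ± 0.0403 to 1.82 ± 0.298 FPKM in WT MEF. Anln, a scaffold of the contractile ring, went from 8.18, 8.34 and 8.24 to 20.8, 20.96 and 22.1 FPKM, and in WT MEF stood at 2.08 ± 0.346 and 2.43 ± 0.111 FPKM (difference 1.11, adjusted p = 5.79e-05). Bub1, a kinase of the spindle checkpoint, went from 3.33, 2.81 and 3.08 to 7.80, 7.38 and 8.28 FPKM. In these 3 genes each treated library exceeded each untreated one by more than the whole spread of either group. E2f1, the transcription factor that opens S phase, rose from 11.7, 11.1 and 10.8 to 26.99, 27.9 and 24.6 FPKM with hardly a move in WT MEF (difference 1.06, adjusted p = 1.43e-05). Chaf1a, the histone chaperone of replicating DNA, rose from 6.46, 6.33 and 6.62 to 13.6, 15.1 and 15.04 FPKM and fell in WT MEF from 3.54 ± 0.0760 to 2.66 ± 0.111 FPKM. Mcm2, a subunit of the replicative helicase, rose alike in both genotypes (1.11 and 1.02). Orc1, which marks replication origins, went from 1.13, 1.27 and 1.49 to 6.22, 6.31 and 6.001 FPKM.

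Not every proliferation gene followed. Mki67, a gene of dividing cells chosen after its values were seen, stood at 5.20, 4.79 and 5.67 FPKM without LiCl and 4.86, 4.45 and 5.30 FPKM with it and did not pass (adjusted p = 0.455). Ccnd1, the cyclin of early G1 and a WNT target, rose from 61.03, 60.3 and 63.2 to 132, 128 and 145 FPKM, more than in WT MEF (difference 0.67, adjusted p = 0.000144). Cdkn1a, the p21 inhibitor of cyclin-dependent kinases, stood at 478, 469 and 436 and 486, 538 and 483 FPKM and did not pass. The sums of the macrophage and fibroblast markers fell in the same libraries, and their part in the rise of the cell division genes was not tested.

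**Figure D4:**
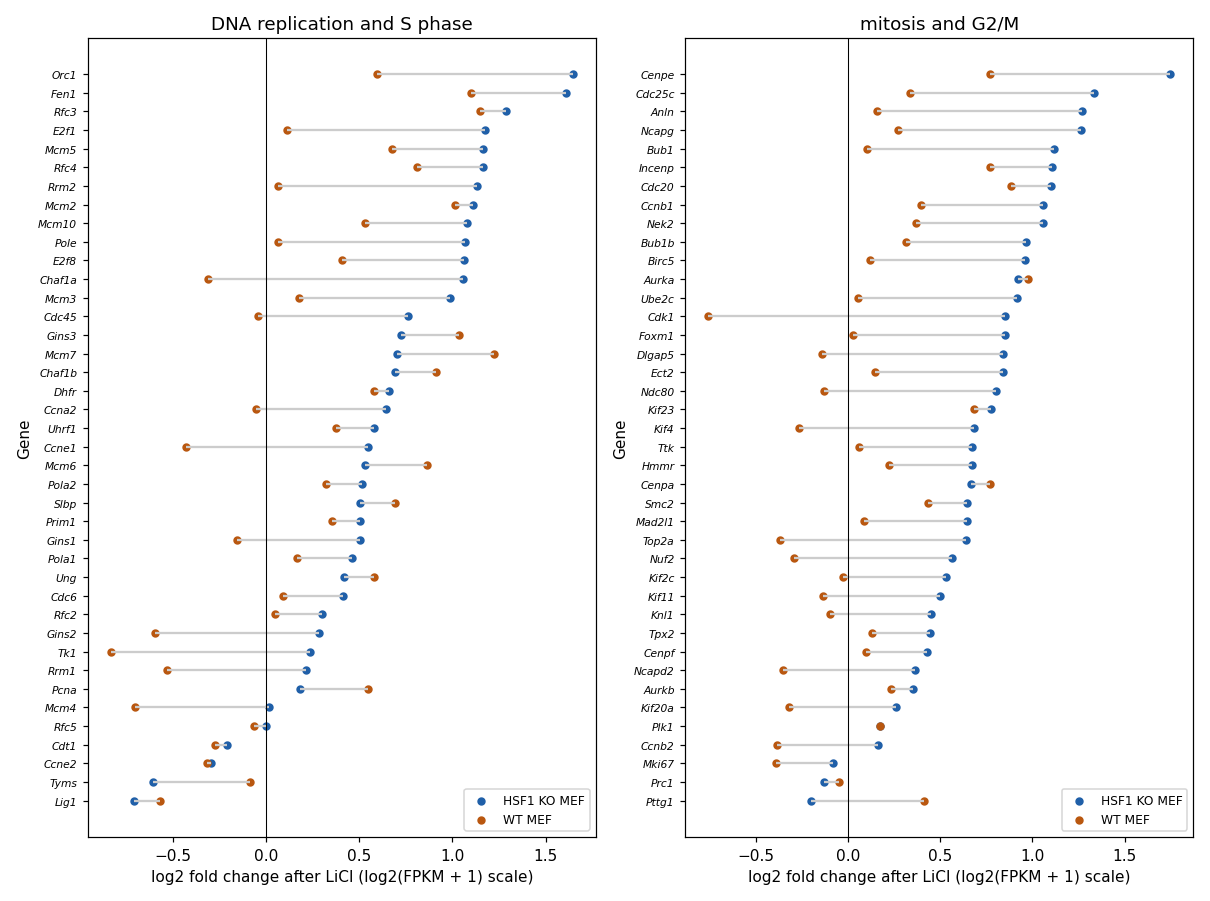
Log2 fold change after LiCl, on the log2(FPKM + 1) scale, of the 40 measured genes of DNA replication and S phase (left) and the 40 of mitosis and G2/M (right), with HSF1 KO MEF in blue, WT MEF in orange and a grey line joining the 2 values of a gene. In the right panel the blue point lies above the orange one for 35 of 40 genes.

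The CHR element TTTGAA, at which repressor complexes hold mitotic genes silent in resting cells, was added to the search after the values were seen. On either strand it lay in 25 of the 34 mitotic genes with a promoter (73.5%), in 5 of 32 S phase genes (15.6%) and in 20.2% of all genes in the promoter table. It can share its GAA with a heat shock element. The windows of 4 named or leading mitotic genes show its match furthest downstream.
Anln, chr9:22389161-22389190, minus strand: tgaaattcaaatTTTGAAcggccgtggtag
Ncapg, chr5:45669883-45669912, plus strand: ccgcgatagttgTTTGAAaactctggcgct
Cdc20, chr4:118437344-118437373, minus strand: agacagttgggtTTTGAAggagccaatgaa
Aurka, chr2:172370521-172370550, minus strand: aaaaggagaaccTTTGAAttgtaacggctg

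This match began 18 and 30 bases before the start site in Cdc20 and Ncapg, and 28 and 32 bases after it in Anln and Aurka. The promoter of Anln held 2 matches. Ncapg, a condensin subunit, rose from 2.12, 2.44 and 2.11 to 5.90, 6.82 and 7.56 FPKM against 0.703 ± 0.116 and 1.05 ± 0.187 FPKM in WT MEF (difference 0.99, adjusted p = 0.000612).

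Genes higher after LiCl only in HSF1 KO MEF numbered 478 (3.89%), as called by a rise there, no rise in WT MEF and a difference between the responses. Their log2 fold changes ran from 0.16 to 2.31 with a median of 0.54, and 57 exceeded 1. In WT MEF 162 of the 478 were lower. By list, 18 belonged to mitosis and G2/M, 10 to S phase and 3 to the WNT targets. Of the 15 largest of these rises, 3 were reversals, and Ogn and Fbln1 are described here as the largest of them. Ogn (osteoglycin), a small leucine-rich proteoglycan, rose from 6.33, 7.07 and 7.001 to 27.6, 21.1 and 30.7 FPKM and fell from 16.4 ± 3.23 to 2.33 ± 0.133 FPKM in WT MEF, a difference of 4.17 (adjusted p = 2.18e-07). Fbln1 (fibulin), an elastic fibre protein, rose from 7.88, 8.07 and 7.22 to 26.6, 28.4 and 24.7 FPKM and fell in WT MEF from 24.1 ± 0.670 to 11.5 ± 0.272 FPKM. The untreated HSF1 KO MEF libraries lay below those of untreated WT MEF for both genes, and the treated ones above those of treated WT MEF.

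Among the others, Slc2a3 and Upk1b rose from near 0. Slc2a3, a glucose transporter of high affinity, went from 0.0483, 0.0417 and 0.0248 to 2.24, 2.10 and 2.73 FPKM and did not pass in WT MEF, at 2.94 ± 0.147 and 1.64 ± 1.34 FPKM. Upk1b, a uroplakin of the urothelium, went from 0.265, 0.170 and 0.243 to 3.73, 3.69 and 3.62 FPKM and stayed at 5.47 ± 0.652 and 5.14 ± 0.197 FPKM. For both genes the treated HSF1 KO MEF libraries lay nearer to the untreated WT level than the untreated ones did. Nrg1, a ligand of ERBB receptors, went from 1.55, 1.51 and 2.40 to 7.48, 7.96 and 8.72 FPKM (difference 1.39, adjusted p = 0.00065). Lrrc8d, a subunit of the volume-regulated anion channel, went from 4.02, 9.22 and 6.67 to 27.9, 26.2 and 28.2 FPKM, and Cenph, a kinetochore protein, from 4.12, 4.55 and 4.13 to 14.1, 14.1 and 14.6 FPKM.

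Genes lower only in HSF1 KO MEF numbered 357 (2.91%), with log2 fold changes from -4.10 to -0.12, a median of -0.68 and 126 under -1. Of these, 129 were higher in WT MEF. It was 237 of 10326 genes tested when a mean of 2 FPKM was required. Macrophage markers gave 8 of them, lysosomal genes 5 and MHC class I genes 3. Genes known from myeloid cells were among the largest. Ccl12, a monocyte chemokine, went from 21.5, 25.5 and 22.7 to 0, 0.860 and 0.503 FPKM. Itgam, the integrin chain CD11b, went from 10.1, 8.79 and 22.3 to 0.0887, 0.170 and 0.148 FPKM. The untreated WT libraries held 0.466 ± 0.448 FPKM of Ccl12 and 0.535 ± 0.386 FPKM of Itgam, close to 0 before LiCl. Cd68, a glycoprotein of macrophage lysosomes, was the only one of the 15 largest that rose in WT MEF, from 3.39 ± 1.15 to 10.9 ± 0.662 FPKM, while it fell from 42.2, 43.6 and 42.5 to 3.34, 3.35 and 2.77 FPKM in HSF1 KO MEF. Of the 357 genes, 242 stood higher in untreated HSF1 KO MEF than in untreated WT MEF and 22 lower. Over all 12279 tested genes these counts were 2181 and 2503. Of the 478 genes higher only in HSF1 KO MEF, 90 stood higher there without LiCl and 206 lower. The untreated libraries also enter the LiCl comparisons, so these counts are not independent of the responses.

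Among WNT feedback and target genes, 8 of 22 rose in HSF1 KO MEF and 8 fell (6 and 11 after rescaling), with a median of -0.13. The 36.4% that rose were at the share over all genes (36.5%), and the 36.4% that fell were above it (21.1%). In WT MEF 5 rose and 15 fell with a median of -1.11, and for 14 genes the response was higher in HSF1 KO MEF and for none lower. Axin2, the scaffold of the β-catenin destruction complex that β-catenin itself induces, rose from 0.420, 0.241 and 0.302 to 3.15, 3.27 and 2.62 FPKM (1.60 ± 0.13, adjusted p = 1.85e-06). It rose from 1.11 ± 0.381 to 2.91 ± 0.210 FPKM in WT MEF, a smaller rise (difference 0.70, adjusted p = 0.0149), from a higher start. Axin1, its constitutive counterpart, rose from 12.7, 12.7 and 13.02 to 20.02, 24.4 and 21.3 FPKM. Gsk3b, the kinase that lithium inhibits, stood at 14.4, 13.9 and 17.6 and 18.8, 16.6 and 23.2 FPKM and did not pass (adjusted p = 0.0539). The secreted WNT antagonists Sfrp1 and Dkk3 fell. Sfrp1 went from 11.7, 12.2 and 13.1 to 1.64, 1.62 and 1.91 FPKM and Dkk3 from 33.8, 34.6 and 34.6 to 9.27, 8.95 and 9.64 FPKM, each less than in WT MEF (differences 1.53 and 0.57). Nkd2, which binds Dishevelled, fell from 6.86, 6.64 and 6.83 to 0.856, 1.15 and 0.763 FPKM, and Ccn4, a matricellular WNT target, from 71.3, 73.8 and 79.3 to 17.04, 13.9 and 19.5 FPKM. The groups of each of these 4 genes were apart, as they were for 62% of all tested genes.

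The integrated stress response, in which ATF4 raises genes of amino acid supply, was raised with 12 of 19 genes higher and 3 lower and a median of 0.69 (11 and 3 after rescaling). Cth, which makes cysteine, went from 2.05, 2.13 and 2.68 to 9.32, 9.33 and 8.76 FPKM, less than in WT MEF (difference -1.04, adjusted p = 0.000893). Trib3, a pseudokinase that feeds back on ATF4, went from 6.12, 4.67 and 4.04 to 16.99, 20.6 and 16.1 FPKM. Ddit4, an inhibitor of mTOR complex signalling, rose from 35.5, 39.6 and 41.2 to 80.95, 74.2 and 76.8 FPKM, more than in WT MEF (difference 0.61, adjusted p = 0.00196). Ddit3, a transcription factor of prolonged stress and the member with the smallest adjusted p, went from 49.6, 55.1 and 42.8 to 333, 352 and 304 FPKM, less than in WT MEF (difference -0.93, adjusted p = 0.000801). The largest differences were those of Atf3, a stress-induced transcription factor, and Gdf15, a stress-induced secreted factor. Atf3, named after its values were seen, went from 10.2, 11.1 and 8.39 to 9.24, 2.17 and 9.60 FPKM without passing in HSF1 KO MEF (adjusted p = 0.171), and in WT MEF from 1.82 ± 0.180 to 53.4 ± 3.46 FPKM (difference -4.90, adjusted p = 4.47e-05). Gdf15 went from 5.02, 4.10 and 4.89 to 12.7, 13.8 and 12.3 FPKM and in WT MEF from 7.35 ± 0.641 to 335 ± 26.1 FPKM (difference -4.03, adjusted p = 1.85e-08). In the whole list 5 members responded higher and 6 lower than in WT MEF. Aminoacyl-tRNA synthetases rose in 10 of 20 genes and fell in 1 (8 and 2 after rescaling), and serine and folate one-carbon enzymes rose in 8 of 11 and fell in 2. Mthfd1, the trifunctional folate enzyme, went from 11.1, 10.3 and 11.3 to 44.5, 48.8 and 48.1 FPKM, a rise of 2.02 ± 0.08. Slc7a3, a transporter of arginine and lysine, went from 0.0193, 0.114 and 0.0326 to 4.67, 4.79 and 4.85 FPKM, far more than in WT MEF (0.352 ± 0.166 to 0.962 ± 0.561 FPKM, difference 1.95, adjusted p = 0.000266).

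The unfolded protein response of the endoplasmic reticulum did not rise with it. Of 19 genes 8 fell and 1 rose (9 and 0 after rescaling, and 3 rose without treated replicate 2). Hsp90b1, the HSP90 of the endoplasmic reticulum, fell from 424, 418 and 418 to 192, 207 and 193 FPKM, by as much as in WT MEF (-1.09 and -1.13). Calr, a lectin chaperone, fell from 718, 706 and 669 to 388, 437 and 404 FPKM. Xbp1, a transcription factor of this response, fell from 43.5, 47.4 and 42.9 to 19.6, 15.6 and 18.4 FPKM, less than in WT MEF (difference 1.32, adjusted p = 0.0122). All treated libraries lay below all untreated ones for the 3 genes, and 62% of all tested genes had no overlap in one direction or the other.

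Targets of p53 rose in 16 of 24 genes and fell in 2 (15 and 2 after rescaling), with a median of 0.74 beside 1.05 in WT MEF, and 11 responded lower than in WT MEF and 1 higher. Gtse1, which binds p53 in G2, went from 21.2, 22.6 and 23.2 to 78.9, 79.4 and 74.99 FPKM. Ei24, a protein of the endoplasmic reticulum first found as a p53 target, went from 38.6, 35.4 and 35.3 to 109.5, 112 and 113 FPKM. Btg2, an antiproliferative gene, fell from 85.5, 82.7 and 84.2 to 44.6, 47.2 and 43.96 FPKM, as it did in WT MEF (difference -0.02, adjusted p = 0.876).

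Lists of growth and energy genes differed in direction. Ribosome biogenesis, mitochondrial ribosome and oxidative phosphorylation genes rose more often than they fell, while glycolysis and lipid synthesis genes fell more often. Cytosolic ribosomal proteins rose in 10 of 38 (26.3%, beside 36.5% over all genes) and fell in 4 (4 and 7 after rescaling). Ribosome biogenesis factors rose in 25 of 30 genes and fell in none (18 and 0 after rescaling), mitochondrial ribosomal proteins rose in 26 of 36 and fell in 2 (20 and 2), and subunits of oxidative phosphorylation rose in 26 of 49 and fell in 1 (16 and 6). Utp20, of the small subunit processome, went from 7.19, 6.87 and 8.85 to 17.2, 18.2 and 19.9 FPKM, and Mrps22, of the small mitochondrial subunit, from 13.8, 15.6 and 14.2 to 45.1, 44.04 and 45.1 FPKM. For 9 of the 30 ribosome biogenesis genes the rise was smaller than in WT MEF and for 1 larger. Glycolysis genes fell in 14 of 19 and rose in 1 (16 and 1 after rescaling). Slc16a3, which exports lactate, went from 67.6, 74.8 and 62.99 to 11.9, 12.3 and 11.96 FPKM, a deeper fall than in WT MEF (difference -0.66, adjusted p = 0.0019). Pgk1, phosphoglycerate kinase, went from 538, 620.1 and 583 to 177, 241 and 233 FPKM and Pdk1, which shuts off pyruvate dehydrogenase, from 10.8, 10.4 and 11.7 to 3.91, 4.81 and 5.59 FPKM. Eno2, the neuronal enolase, was the gene that rose, from 1.41, 2.44 and 1.94 to 7.30, 5.43 and 4.70 FPKM. Cholesterol and fatty acid synthesis fell in 21 of 28 genes and rose in 2 (25 and 1 after rescaling). Fdps, of the isoprenoid chain, went from 84.2, 82.4 and 85.5 to 23.2, 24.6 and 21.6 FPKM. The median of this list was -0.69 in HSF1 KO MEF and -0.71 in WT MEF.

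Lysosomal genes responded less than in WT MEF. Of 50 genes 17 rose (34.0%) and 14 fell (28.0%) with a median of -0.02, beside 36.5% higher and 21.1% lower over all genes. After rescaling 11 rose and 22 fell, beside 26.4% and 28.1% over all genes. In WT MEF 30 rose and 9 fell with a median of 0.47, and 24 genes responded lower than in WT MEF and 3 higher. For the v-ATPase, the proton pump that acidifies lysosomes, 11 of 16 rose and 1 fell (8 and 2 after rescaling), with a median of 0.37 beside 1.32, and 12 responded lower and none higher. Atp6ap2, its accessory subunit, went from 46.5, 43.3 and 49.99 to 102, 94.2 and 109 FPKM in HSF1 KO MEF and from 34.2 ± 1.92 to 134 ± 3.22 FPKM in WT MEF (difference -0.83, adjusted p = 0.000113). Man2b1, the lysosomal mannosidase, rose from 27.8, 26.4 and 28.2 to 90.05, 90.5 and 82.5 FPKM, less than in WT MEF (difference -1.07, adjusted p = 6.87e-06). Ctss, a cathepsin of antigen-presenting cells that is also in the macrophage marker list, fell from 91.7, 91.8 and 82.7 to 6.68, 8.09 and 7.51 FPKM, and Ctsc, which activates granule proteases, from 28.7, 30.4 and 28.4 to 4.52, 4.70 and 5.16 FPKM. The falling lysosomal genes thus included members that moved with the macrophage markers, whose part in the list's counts was not tested.

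The fibroblast programme itself fell, though less than in WT MEF. Collagen and matrix genes fell in 32 of 43 and rose in 4 with a median of -1.22 (35 and 4 after rescaling), against 39 and 3 in WT MEF with a median of -2.04. For 26 genes the response was higher than in WT MEF and for 3 lower. Lox, which crosslinks collagen, went from 915, 959 and 1055 to 90.4, 73.7 and 99.9 FPKM in HSF1 KO MEF and from 1771 ± 79.1 to 21.9 ± 0.844 FPKM in WT MEF, a difference of 2.81 (adjusted p = 2.18e-07). Col3a1, a fibrillar collagen, went from 98.98, 91.05 and 92.6 to 15.3, 17.6 and 15.9 FPKM and from 556 ± 46.6 to 15.9 ± 0.865 FPKM. For Col3a1 the treated libraries of both genotypes met at one level from unequal starts. Fmod (fibromodulin), which binds collagen fibrils, was an exception that fell more in HSF1 KO MEF, from 25.6, 26.4 and 24.2 to 1.89, 1.89 and 2.04 FPKM (difference -1.13, adjusted p = 1.69e-06). Matrix proteases and their inhibitors fell in 16 of 22 and rose in 3 (18 and 2 after rescaling). Mmp13, a collagenase, went from 201, 207 and 209.8 to 20.1, 19.02 and 21.9 FPKM.

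Myofibroblast genes of the contractile apparatus fell in 10 of 13 with 1 riser (12 and 0 after rescaling), and for 11 the response was higher than in WT MEF and for none lower. Their median was -0.50 in HSF1 KO MEF and -1.88 in WT MEF. Tpm2, a tropomyosin, went from 493, 507 and 472 to 242, 262 and 243 FPKM, and in WT MEF from 215 ± 4.96 to 47.8 ± 1.04 FPKM (difference 1.17, adjusted p = 7.89e-07). Actg2, the enteric smooth muscle actin, went from 232, 172 and 220.5 to 92.1, 93.8 and 73.2 FPKM. The summed fibroblast markers fell from 3267 to 3443 FPKM down to 1681 to 1743 FPKM, with 10 of 12 lower and 0 higher (12 and 0 after rescaling), and the part of this in the matrix and contractile genes was not tested. Of the epithelial keratins, 2 rose from low levels, with Krt19 going from 4.10, 3.06 and 2.66 to 24.7, 28.5 and 26.2 FPKM and Krt18 from 0.709, 0.411 and 0.513 to 5.67, 5.38 and 6.10 FPKM. Krt8 was at 0 in the untreated libraries and at most 0.101 FPKM with LiCl, and Krt14 was listed at 0 in all 6. Of the 10 epithelial markers 3 were tested, and Epcam and Cdh1 were not analysed here.

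**Figure D5:**
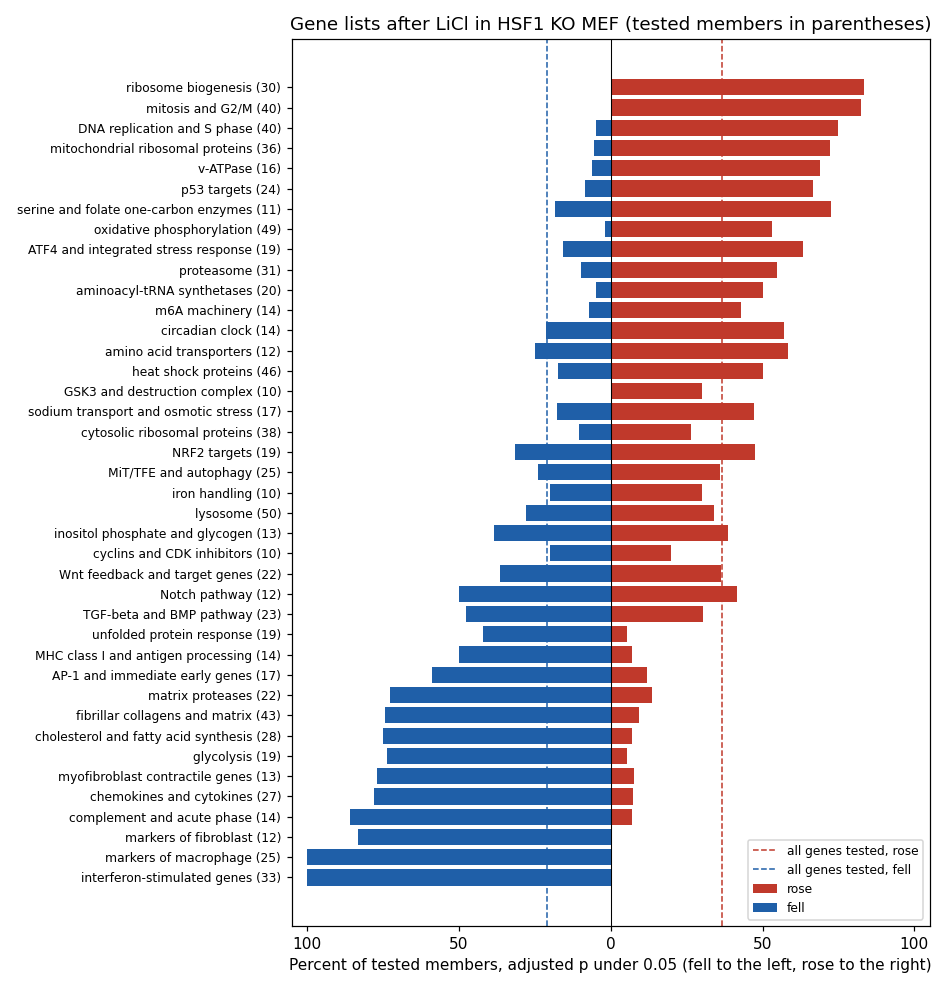
Percent of the tested members of each gene list that rose (red, to the right) or fell (blue, to the left) after LiCl in HSF1 KO MEF (adjusted p under 0.05), with the number tested in parentheses and dashed lines for all 12279 genes (36.5% higher, 21.1% lower). Macrophage markers and interferon-stimulated genes fell in every tested member, and mitosis and ribosome biogenesis lie at the rising end with no member lower (2 and 0 lower after rescaling).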

How the data were processed

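Poly(A) RNA of 12 MEF libraries, 3 per group, had been prepared with a stranded kit for HiSeq sequencing. The tools cutadapt, HISAT2 2.0.5, StringTie and the build GRCm38 are named in the submitters' processing notes, without their order. The authors deposited 1 table of values per transcript, read here as FPKM, since the unit is not named in the sources used here and the library sums are unequal and too small for TPM. Each transcript in it has a group mean of at least 0.5 FPKM, so low transcripts had been left out. Low values did not fall on steps of whole reads (13.2% to 24.3% within 0.05 of a multiple), and the depth is unknown.

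The 27185 transcripts were matched to GENCODE mouse release 21, of which 70 (at most 0.136% of a library) were not matched, and summed to 12988 genes. The 12279 genes that averaged 0.5 FPKM or more over all libraries were tested, and 709 were not. limma 3.58.1 (R 4.3.3) fitted the 4 group means on log2(FPKM + 1) with a variance trend, and p-values were adjusted over the 12279 genes (Benjamini-Hochberg) and called under 0.05. The pseudocount of 1 makes fold changes of low genes too small. The fit was tested on simulated data. A gene changed only in HSF1 KO MEF passed there, did not pass in the same direction in WT MEF, and passed the test of the difference. Lists were described by counts and medians, with no set test, and 49 listed genes were not analysed here.

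The members and lists were chosen with earlier results of these data known. Named genes were the 20 largest rises and falls and the 15 largest rises and falls only in HSF1 KO MEF (a mean of at least 1 FPKM, no overlap of libraries), in each list the 6 members or fewer of smallest adjusted p, all heat shock, macrophage, proliferin and metallothionein genes, and Hsf1. Not all of them are described, and 2 are not reported here. Promoters of RefSeq (GRCm38.p6) were found for 9796 of the tested genes (79.8%), too few to compare genes that rose with genes that fell. The interferon and CHR elements were added after the data were seen. Alternatives were pseudocount, filter, scaling, variance model, the replicate block and leaving out each library. Python 3.11.15 was used with pandas 2.3.3 and matplotlib 3.10.9.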

Additional observations from a re-analysis of the deposited data

Results flagged for a closer look

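The test of the difference between both LiCl responses called 3846 genes. Of all genes, 291 were called in opposite directions in HSF1 KO MEF and WT MEF, and 15 of the genes named by rule were among them. The log2 fold change in HSF1 KO MEF minus that in WT MEF was 4.17 for Ogn, 2.67 for Fbln1, 2.26 for Ndnf, a secreted protein, 1.66 for Mt1 (whose rise did not pass after median-of-ratios scaling), 1.56 for Slc1a4, a neutral amino acid transporter, 1.37 for Chaf1a and 0.57 for Csnk1e, a casein kinase, all higher in HSF1 KO MEF and lower in WT MEF after LiCl. After median-of-ratios scaling, Csnk1e was no longer among the genes higher only in HSF1 KO MEF. Ndnf went from 1.02, 1.15 and 1.37 to 5.32, 5.32 and 5.56 FPKM there and from a mean of 3.85 to 1.98 FPKM in WT MEF. The rest fell in HSF1 KO MEF and rose in WT MEF. Their difference was -4.88 for Cd68, -3.24 for Gpnmb, a glycoprotein of lysosomes and melanosomes, -2.89 for Cd14, the lipopolysaccharide co-receptor, -1.97 for Vwf, -1.35 for Acta1, the skeletal muscle actin, -0.94 for Tapbp, -0.76 for Psmd8, a proteasome subunit, and -0.42 for Cdkn2b, an inhibitor of cyclin-dependent kinases. The fall of Vwf lay near 0 FPKM, from 0.491, 0.387 and 0.275 to 0.107, 0.198 and 0.0523 FPKM in HSF1 KO MEF. In WT MEF its mean rose from 0.0218 to 2.25 FPKM.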

How the results depend on the processing

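Of 351 named genes that passed, 330 also passed under each of the 20 alternatives in which they were tested. Leaving out 1 library at a time gave 4084 to 4501 genes higher, 2385 to 2591 lower, 3399 to 3708 with a different response, 407 to 459 higher only and 306 to 371 lower only in HSF1 KO MEF. With a mean of at least 2 FPKM, 237 genes were lower only in HSF1 KO MEF, in part because fewer genes were tested. Under median-of-ratios scaling Ptges3 was at -0.04 and Cct5 at -0.16, with the sign turned, and the cause was not tested. Quantile normalization gave 3934 genes higher and 2895 lower. With the replicate number as a block, 4752 genes were higher, 2748 lower and 4375 different in response. Deviations of same-numbered HSF1 KO MEF libraries correlated at 0.004, 0.031 and 0.177, and replicate 1 correlated best with treated replicate 2 (0.14). The unnumbered libraries correlated at 0.177 in HSF1 KO MEF and 0.195 in WT MEF. Between the untreated unnumbered libraries of both genotypes the correlation was 0.167. The unnumbered libraries may thus share a deviation that the main fit did not model, and its source was not tested. The depth is unknown, so values near 0 FPKM carry a counting error that could not be given.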

Other observations

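Circadian clock genes rose in 8 of 14 measured members (57.1%) after LiCl in HSF1 KO MEF and fell in 3 (21.4%). Over all genes 36.5% rose and 21.1% fell. After median-of-ratios scaling 7 clock genes rose and 3 fell, beside 26.4% and 28.1% over all genes. Per2, a repressor of the clock, went from 1.19, 1.20 and 1.21 FPKM without LiCl to 6.98, 6.48 and 6.27 FPKM with it, by 1.78 ± 0.07 (standard error) on the log2 scale, and WT MEF changed by the same 1.78. Cry1, its partner, went from 5.17, 5.07 and 6.44 to 14.9, 15.6 and 15.6 FPKM. The treated libraries of both genes were well above the untreated ones. Bhlhe40, which represses clock genes, fell from 17.7, 16.9 and 17.3 to 9.40, 8.87 and 9.70 FPKM.

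In the sodium and osmotic list 8 of 17 genes rose (47.1%) and 3 fell (17.6%), beside 36.5% and 21.1% over all genes. After the same scaling 6 rose and 5 fell, beside 26.4% and 28.1% over all genes. Slc5a3, the sodium-coupled importer of myo-inositol, rose from 3.32, 3.39 and 4.43 to 12.8, 10.9 and 14.8 FPKM. Among genes of inositol phosphate metabolism, Bpnt1 and Inpp1, phosphatases that lithium inhibits, rose by 0.55 and 0.66 on the log2 scale, both less than in WT MEF (differences of -0.48 and -0.97). Of the glycogen genes, Pygl, a glycogen phosphorylase, fell from 10.1, 10.5 and 10.3 to 1.95, 2.04 and 1.60 FPKM and Gys1, glycogen synthase, from 27.8, 28.0 and 28.9 to 14.4, 10.7 and 15.9 FPKM. Fth1, the ferritin heavy chain, fell from 2535, 2500 and 1892 to 1140, 1283 and 974 FPKM, by 1.02 ± 0.18 on the log2 scale. Of the metallothioneins, Mt2 fell from 150, 182 and 135 to 108, 89.4 and 87.9 FPKM, and Mt1 rose by 0.44, a call that ended under median-of-ratios scaling (0.23).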
